A study of Mus musculus with 4 samples.

Results

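The G1 cyclins and their kinases were followed in RNA of LSK cells with and without Meis1. The group holds 8 genes, which are the D-type cyclins *Ccnd1*, *Ccnd2* and *Ccnd3*, their kinases *Cdk4* and *Cdk6*, and *Ccne1*, *Ccne2* and *Cdk2*. Its members were all probes to which the array's design gives one of these symbols, 15 of the 41174 probes on the array. All 15 were tested, among 22007 tested probes, and all 15 were well above background on all 4 arrays.

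LSK cells are the Lin-, Sca-1+ and c-Kit+ cells of the bone marrow, which contain hematopoietic stem cells (HSCs) and early progenitors. Meis1-deficient cells came from *Mx1-Cre Meis1 fl/fl* mice and control cells from *Meis1 fl/fl* mice without the Cre, all on C57BL/6J, so that both genotypes carried the floxed allele. Poly(I:C), a synthetic double-stranded RNA that induces interferon and thereby the *Mx1-Cre* transgene, was injected intraperitoneally at 1.5 µg/g, 4 times, into mice that were 4 to 8 weeks old, and cells were collected 1 week later. Each genotype had 2 pools of 6 mice, and each pool was read on 1 array after amplification of 10 ng of RNA. The floxed exon encodes part of the homeodomain, and *Mx1-Cre* is active in interferon-responsive cells in general, not in blood cells alone. Whether the control mice had been given poly(I:C) or a sham treatment is described in both ways, and the treatment and the genotype cannot be told apart if the controls were sham-treated. Pools with the same number were on the same slide.

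D-type cyclins are made in response to growth signals in G1. They bind Cdk4 or Cdk6, and the complexes phosphorylate the retinoblastoma protein, which frees E2F factors. E2F in turn raises transcription of the E-type cyclins, which activate Cdk2 and carry the cell into S phase. Much of this control acts on protein stability and on inhibitors, which an RNA array does not read. Most HSCs in adult marrow rest outside the cycle, and Cdk6 is known for its part in how quickly they leave that state.

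The probes are 60 bases long, and 3 are shown because a reader can see from them which stretch of RNA was measured. In 2 of them the capitals mark the bases shared with the forward primer that the study designed for quantitative PCR of the same gene. In the *Cdk4* probe they mark the codons of the Asp-Phe-Gly motif, a magnesium-binding element that protein kinases share.
Ccnd2 A_52_P53906: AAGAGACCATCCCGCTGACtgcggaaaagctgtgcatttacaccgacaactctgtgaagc
Cdk6 A_52_P417489: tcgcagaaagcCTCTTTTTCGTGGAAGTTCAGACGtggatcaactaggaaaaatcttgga
Cdk4 A_51_P437027: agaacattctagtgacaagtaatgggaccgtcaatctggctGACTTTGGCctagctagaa
The *Ccnd2* probe lies at chr6:127098696-127098755 on the minus strand (mm9, as the array's annotation gives it), and it holds 19 of the 22 bases of the primer. The *Cdk6* probe holds all 24 bases of its primer. Its ends are annotated at chr5:3473220-3515504 on the plus strand, a span of 42285 bases, so that it joins exons and reads spliced RNA. The *Cdk4* probe lies at chr10:126501967-126502026 on the plus strand. Each of the 3 has a reading frame without a stop codon along its whole length. No run longer than 8 bases was shared by probes of different members on either strand.

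No G1 cyclin or kinase probe changed between the genotypes when judged as the study did (a raw p below 0.01 together with a change of over 2-fold). These criteria called 162 of the 22007 tested probes (0.736%). All 15 member probes differed by less than 2-fold, from -0.15 to 0.88 on the log2 scale, with standard errors of 0.42 to 0.80 (limma, n = 2 arrays per genotype). None had an unadjusted p under 0.05, against 2.81% of all tested probes, with a smallest value of 0.095. The smallest Benjamini-Hochberg adjusted p was 0.98. With the slide as a block, again no member met the criteria, against 1.99% of all probes, and none had an unadjusted p under 0.05, against 6.07%.

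The fitted value was above 0 at 12 of 15 member probes, against 56.3% of all tested probes, and the median was 0.41 over the members and 0.08 over all probes. Both Meis1-deficient arrays lay above both controls at 5 member probes (16% of all probes), which were the *Ccnd1* probe, the *Cdk4* probe, both *Ccne1* probes and the brighter *Ccne2* probe. At no member probe did both lie below both controls (10.9% of all probes). The difference had the same sign on both slides at 11 of 15 member probes, against 51.2% of all probes. Without the second Meis1-deficient array, which was the dimmest of the 4, 10 of 15 were above 0, against 52.9% of all probes, and the median was 0.11. When the arrays were compared with no scaling, the median of all probes moved by -0.38, and 8 of 15 member probes were above 0 against 25.6% of all probes. Under quantile normalization 9 of 15 were above 0, against 52.7% of all probes, with a member median of 0.17. Under normexp background correction it was 9 of 15 against 66.7%, with a median of 0.25. In RNA of whole pools, a change in the share of cells with a transcript and a change in its amount per cell cannot be told apart.

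**Figure D1:**
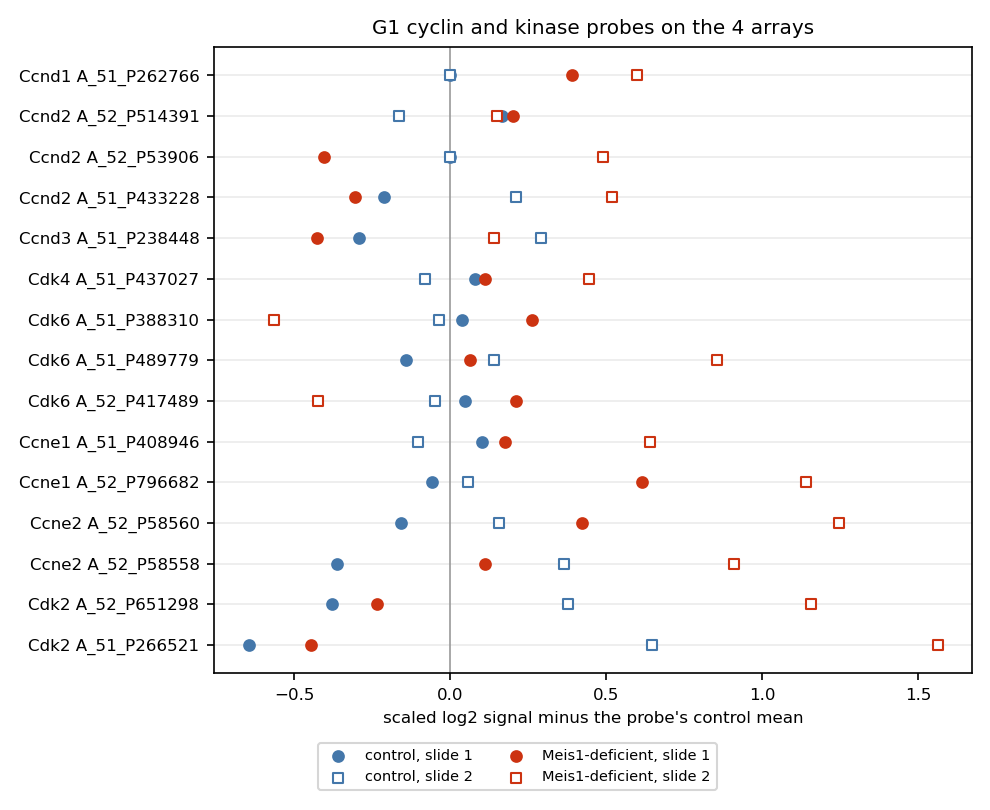
Each row is a member probe and each point an array, plotted as its log2 signal after scaling minus the mean of the probe's 2 control arrays. Circles are slide 1 and squares slide 2, blue is control and red Meis1-deficient. The square for the second Meis1-deficient array lies farthest to the right at most probes, and farthest to the left at 2 of the 3 *Cdk6* probes.

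*Ccnd1* encodes cyclin D1 and had 1 probe, printed 10 times on each array at chr7:152116173-152116232 on the minus strand. Its log2 signal, relative to the array's 75th percentile of signal, was 0.46 on both control arrays, and 0.85 and 1.06 on the Meis1-deficient arrays. Both Meis1-deficient arrays were above both controls. The difference was 0.49 on the log2 scale, 1.41-fold, with a standard error of 0.42 and a 95% confidence interval of -0.53 to 1.52 (limma, adjusted p = 0.98, n = 2 per genotype). It was 0.39 on slide 1 and 0.60 on slide 2.

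The 10 copies of the *Ccnd1* probe give the spread of spots within an array. On the first control array they ran from 0.31 to 0.59 and on the second from 0.39 to 0.55. On the Meis1-deficient arrays they ran from 0.69 to 1.00 and from 0.88 to 1.29. No spot of a control array reached the lowest spot of a Meis1-deficient array, but spots of an array share 1 pool of RNA and are not replicates of a genotype. Before scaling, the mean signals were 202 and 212 in control cells and 268 and 188 in Meis1-deficient cells, so that the groups overlapped. The value was above 0 in all 15 alternatives that were run, from 0.12 with no scaling, where the median of all probes was -0.30, to 0.60. By the methods' t-test its unadjusted p was 0.042, the only member p under 0.05 in that test, and it did not pass the study's criteria there.

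**Figure D2:**
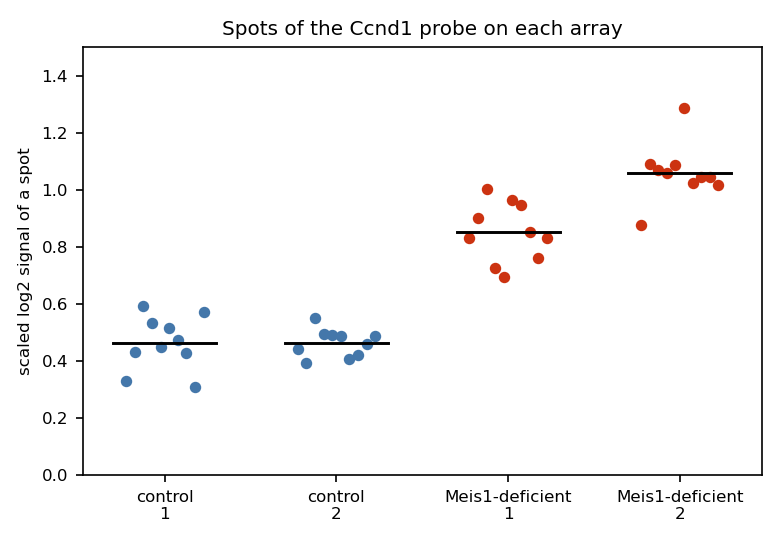
Log2 signal after scaling of each of the 10 spots of the *Ccnd1* probe on the 4 arrays, with a bar at the array's mean. The control spots end at 0.59 and the Meis1-deficient spots begin at 0.69.

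*Ccnd2*, cyclin D2, had 3 probes, and none of them separated the genotypes. At the brightest, at chr6:127079694-127079753, the log2 signal was 4.16 and 3.83 in control cells and 4.19 and 4.14 in Meis1-deficient cells, a difference of 0.18 ± 0.43 (SE). The groups overlapped. At the probe shown above, farther upstream, both controls were at 2.39 and the Meis1-deficient arrays at 1.98 and 2.88, 1 on either side. The remaining probe, at chr6:127089187-127089246, read 1.29 and 1.71 in control cells and 1.20 and 2.02 in Meis1-deficient cells. The sign of all 3 turned negative under quantile normalization and under normexp background correction, and with no scaling, which moved all probes down.

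*Ccnd3*, cyclin D3, had 1 probe, at chr17:47736267-47736326. Its log2 signal was 1.59 and 2.17 in control cells and 1.45 and 2.02 in Meis1-deficient cells. The arrays of slide 2 were the higher ones in both genotypes, and the Meis1-deficient array was the lower one on each slide, by 0.14 and 0.15. The overall difference was -0.14 ± 0.48 (SE), and its sign turned without the first Meis1-deficient array (0.14) or without the second control array (0.15), fits in which the genotypes no longer hold the same slides.

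The D cyclins were also compared with each other within each array, at their brightest probes. The difference between *Ccnd1* and *Ccnd3* was higher in Meis1-deficient than in control arrays by 0.64, and that between *Ccnd1* and *Ccnd2* by 0.32. An exact two-sided permutation test gave p = 0.33 for each, the smallest p that 2 arrays against 2 allow, and 0.67 after adjustment over the 4 pairs compared. This p does not show that the D cyclins responded alike.

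*Cdk4* had 1 probe. Its log2 signal was 2.51 and 2.35 in control cells and 2.54 and 2.87 in Meis1-deficient cells. The groups did not overlap, though the first Meis1-deficient array was within 0.03 of the control on its slide. The difference was 0.28 ± 0.43 (SE), with a 95% interval of -0.77 to 1.32. It was -0.10 with no scaling, where the median of all probes was -0.30.

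*Cdk6* had 3 probes, which did not move together. At the brightest, at chr5:3521669-3521728, the log2 signal was 6.51 and 6.44 in control cells and 6.74 and 5.91 in Meis1-deficient cells. The probe that holds the whole PCR primer, 6.17 kb upstream by its annotated end, read 2.73 and 2.63 in control cells and 2.89 and 2.26 in Meis1-deficient cells. At both, the first Meis1-deficient array was the highest of the 4 and the second the lowest. The differences were -0.15 ± 0.48 and -0.11 ± 0.46 (SE), and the sign of each turned without the second Meis1-deficient array (0.26 and 0.21).

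The last *Cdk6* probe lies at chr5:3529287-3529346, 7.56 kb downstream of the brightest one, and was designed on a cDNA that matched no RefSeq transcript. It read 4.69 and 4.97 in control cells and 4.89 and 5.68 in Meis1-deficient cells, a difference of 0.46 ± 0.48 (SE). Here the second Meis1-deficient array was the highest of the 4. Within an array, the log2 signal of this probe minus that of the brightest was -1.83 and -1.47 in control cells, -1.84 in the first Meis1-deficient array and -0.23 in the second. The same subtraction for the primer-matching probe ran only from -3.85 to -3.66 over the 4 arrays. The downstream probe thus stood apart on the second Meis1-deficient array only, and whether it reads the same RNA as the other 2 probes was not tested.

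The within-array difference between *Cdk4* and *Cdk6* was higher in Meis1-deficient cells by 0.43 (exact two-sided permutation test, p = 1.00). It was -0.19 on slide 1 and 1.05 on slide 2, and -0.15 without the second Meis1-deficient array.

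The 2 largest differences of the group were at probes of the E-type cyclins. The 2 *Ccne1* probes, for cyclin E1, share the same annotated 24 bases at chr7:38882937-38882960, although each is 60 bases long and their sequences differ. The brighter one read -0.48 and -0.69 in control cells and -0.41 and 0.05 in Meis1-deficient cells, a difference of 0.41 ± 0.44 (SE). The dimmer one read -2.78 and -2.66 in control cells and -2.11 and -1.58 in Meis1-deficient cells. Its difference of 0.88 ± 0.45 (SE), 1.84-fold, had a 95% interval of -0.20 to 1.96 (limma, adjusted p = 0.98). Both probes had the Meis1-deficient arrays above the controls. The dimmer probe had processed signals of only 21.4 to 34.5.

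*Ccne2*, cyclin E2, had 2 probes 57 bases apart, the brighter at chr4:11130171-11130230. This one read 0.96 and 1.28 in control cells and 1.54 and 2.36 in Meis1-deficient cells. The difference was 0.83 ± 0.49 (SE), 1.78-fold, with a 95% interval of -0.35 to 2.02 (limma, adjusted p = 0.98). It was 0.58 on slide 1 and 1.09 on slide 2, and the groups did not overlap. The dimmer probe read -1.91 and -1.18 in control cells and -1.44 and -0.64 in Meis1-deficient cells. Here the second control lay above the first Meis1-deficient array, and the difference was 0.51 ± 0.52 (SE).

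At all 4 cyclin E probes the value was above 0 in each of the 15 alternatives. The brighter *Ccne2* probe ranged from 0.42 to 1.25 and the dimmer *Ccne1* probe from 0.50 to 1.14, and neither met the criteria in any of them. The within-array difference between *Ccne1* and *Ccne2* at their brighter probes was lower in Meis1-deficient cells by 0.43 on the log2 scale (exact two-sided permutation test, p = 0.67, and 0.89 over the 4 pairs).

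*Cdk2*, the kinase of the E-type cyclins, varied more between slides than between genotypes. Its brighter probe, at chr10:128140817-128140876, read 0.56 and 1.32 in control cells and 0.70 and 2.10 in Meis1-deficient cells. The dimmer one, at chr10:128135214-128135273, read -2.15 and -0.86 in control cells and -1.95 and 0.06 in Meis1-deficient cells. Both arrays of slide 2 were above both arrays of slide 1 at both probes. The differences between genotypes were 0.46 ± 0.61 and 0.56 ± 0.80 (SE), the widest errors of the group. Within slides they were 0.14 and 0.78 at the brighter probe and 0.20 and 0.91 at the dimmer one, so the Meis1-deficient array was the higher one on each slide. Without the second Meis1-deficient array, which leaves the remaining one of slide 1 against controls of both slides, they were -0.24 and -0.45.

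**Figure D3:**
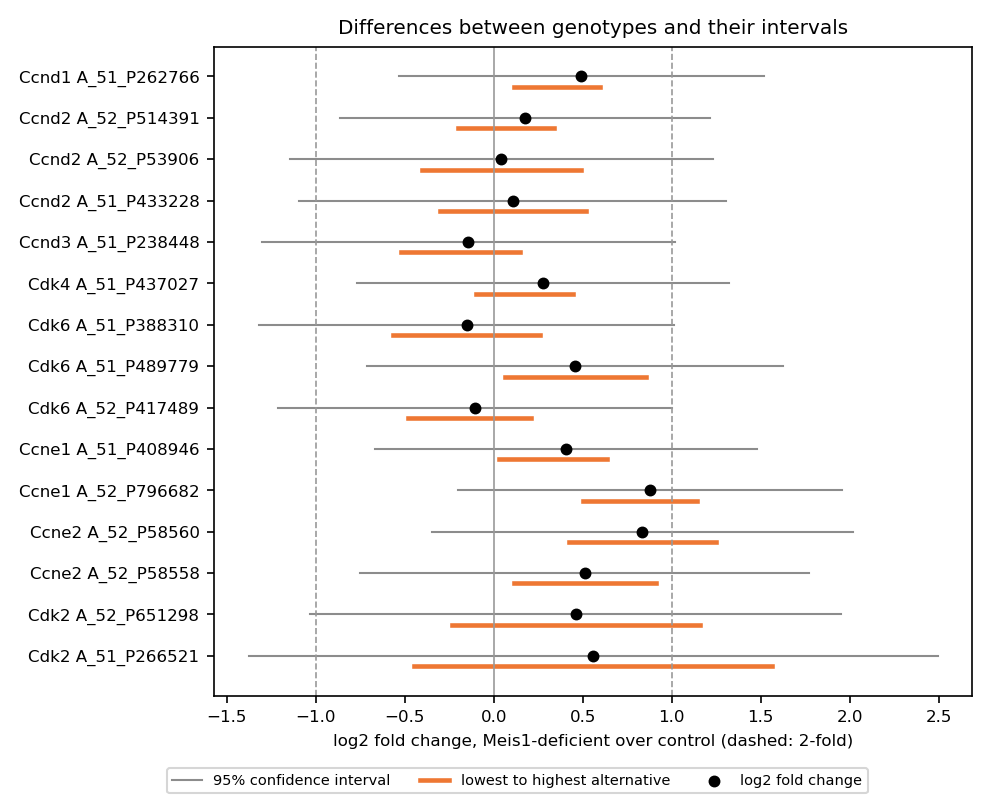
Log2 fold change of each member probe, Meis1-deficient over control, as a black point, with its 95% confidence interval from limma in grey and the range over the 15 alternatives in orange. Every interval crosses 0, and the *Ccne1*, *Ccne2*, *Ccnd1* and downstream *Cdk6* probes have an orange range that stays above 0.

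The genes whose 4 values were nearest to those of *Ccnd1* were *Arhgap5*, LOC100044124 and *Dzip3*, at root mean square distances of 0.011, 0.024 and 0.027 on the log2 scale after each gene was centered on its mean. For *Cdk6* they were *Trip12*, *Nxf1* and *Ulk2*, at 0.021, 0.028 and 0.030. The search covered 11063 genes over only 4 arrays, and 157 genes lay within 0.1 of *Ccnd1* and 135 within 0.1 of *Cdk6*.

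Around the G1 cyclins, no list of cell cycle genes held a probe that met the criteria. Each gene was read at its brightest probe. Of 28 tested genes of S phase that E2F is known to drive, 26 had values above 0 and 2 below (56.3% of all tested probes were above 0), with a median of 0.36. In 10 of them both Meis1-deficient arrays were above both controls, as they were at 16% of all tested probes. The highest was *Tyms*, thymidylate synthase, at 0.81 ± 0.45 (SE), and the lowest *Cdc6*, which loads the replicative helicase, at -0.33 ± 0.47. The median of these genes was 0.19 on slide 1 and 0.62 on slide 2. Without the second Meis1-deficient array 20 of 28 were above 0, against 52.9% of all probes. Under quantile normalization it was 21 of 28 against 52.7%, and under normexp background correction 23 of 28 against 66.7%. With no scaling, which moved all probes down, 12 of 28 were above 0, against 25.6%.

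Of 14 later cyclins and mitotic genes, 11 were above 0 and 3 below, with a median of 0.33. The highest, *Ccnb1* (cyclin B1), was at 0.89 ± 0.58 (SE). The lowest, the proliferation marker *Mki67*, was at -0.64 ± 1.20, and it was 0.40 on slide 1 and -1.69 on slide 2. *Ccnb1* met the criteria only with Meis1-deficient array 1 removed.

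Of 13 genes of the Rb and E2F families, 10 were above 0, with a median of 0.14. They ran from *E2f2* at -0.35 ± 0.50 (SE) to *Tfdp1*, the dimerization partner of E2F, at 0.64 ± 0.47. Of 11 genes that activate G1 kinases or set their turnover, 8 were above 0, with a median of 0.21. The extremes were *Ccnh*, the cyclin of the CDK-activating kinase, at 0.83 ± 0.56 and *Cul1*, a scaffold of the SCF ubiquitin ligase, at -0.31 ± 0.56.

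Of 7 CDK inhibitor genes on the array, 5 were tested, 2 above 0 and 3 below, with a median of -0.08. *Cdkn2c* (p18) was at 0.62 ± 0.44 (SE). *Cdkn1a* (p21) was at -1.03 ± 0.90, with a log2 signal of 3.12 and 0.95 in control cells and 1.89 and 0.12 in Meis1-deficient cells. Both arrays of slide 1 were above both arrays of slide 2, and the Meis1-deficient array was the lower one on each slide, by 1.23 and 0.83. With the slide as a block its standard error was 0.47 and it did not meet the criteria (adjusted p = 0.83). Without the first control array, which leaves a control on slide 2 alone, the difference was 0.06.

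**Figure D4:**
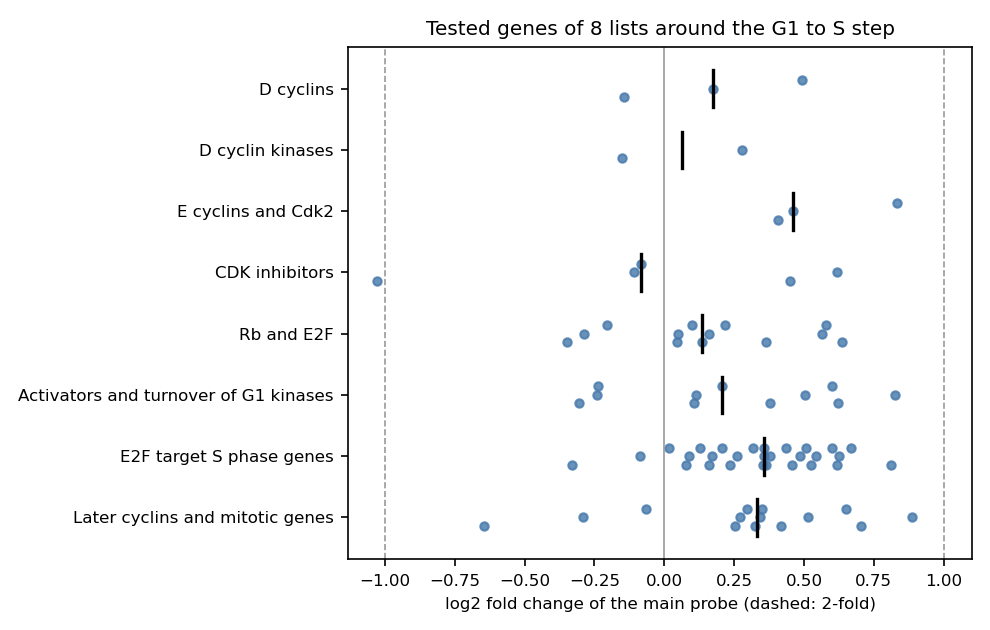
Log2 fold change of the brightest probe of each tested gene, Meis1-deficient over control, in 8 lists of cell cycle genes, with a bar at each list's median. The S phase and mitotic lists have medians of 0.36 and 0.33, the CDK inhibitors -0.08, and only *Cdkn1a* lies beyond 2-fold.

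*Meis1* read lower on both Meis1-deficient arrays than on both controls at each of its 2 probes, with differences of -0.997 ± 0.44 and -1.70 ± 0.54 (SE) on the log2 scale. Neither met the criteria (limma, adjusted p = 0.98 for each), and the second did with the block. The more weakly lit of the 2 was well above background on 3 arrays, and whether either probe reads the deleted exon was not determined here. All 9 LSK and HSC marker genes were well above background in every library, with a median difference of 0.12, and *Kit* read 2.03 and 2.14 in control cells and 1.95 and 1.81 in Meis1-deficient cells. Of the spots, 57.4%, 54.7%, 56.6% and 49.2% were well above background on control 1, control 2, Meis1-deficient 1 and Meis1-deficient 2. The 75th percentile of signal, which scales an array, was 90.3 on the last and 147 to 154 on the others, and the part of that low signal in the members' higher values on slide 2 was not tested.

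Markers of other cells also differed between the arrays. The summed linear signal of 7 erythroid genes was 245 on the second Meis1-deficient array and 23.3 to 99.0 on the others, and that of 8 granulocyte and monocyte genes was 52.1 to 171 over the 4 arrays. *Elane*, neutrophil elastase, was the only gene of any list that met the criteria in the fit with genotype alone, and it is named after its values were seen. Its log2 signal was -0.87 and -0.84 in control cells and -2.56 and -2.30 in Meis1-deficient cells, a difference of -1.57 ± 0.42 (SE; adjusted p = 0.98), and it met the criteria with the block as well. It did not in 7 of the 15 alternatives, always with the same sign. The summed signal of 6 plasma cell genes was 27.2 and 13.4 in control cells and 5.0 and 25.8 in Meis1-deficient cells. All 5 tested genes of this list had values below 0, with a median of -1.67, but the median was -3.11 on slide 1 and 0.85 on slide 2. Of the 5, only 3 were well above background on all 4 arrays. The filter needs both arrays of either genotype, so it can admit a gene for being high in control cells alone. The count below 0 is therefore not a test. *Irf4*, well above background on 3 arrays, was at -2.36, and at -3.57 on slide 1 and -1.16 on slide 2. It passed the criteria with slide added as a block, with no filter on dim probes and without the second control array (-3.54), and in none of the other alternatives that kept it, with -1.18 without the first control array and -0.51 under normexp. The summed signal of 5 megakaryocyte genes was 35 on the second control array and 9.01 to 11.3 on the others. Of 8 B lineage genes 2 were well above background on no array, as were 2 of 6 T lineage genes. The summed signal of the B lineage genes was 18.4 and 7.5 in control cells and 11.7 and 8.6 in Meis1-deficient cells. The 3 tested B lineage genes and 2 tested T lineage genes had values below 0, with medians of -0.22 and -0.94. The same filter applied, and 2 of these B lineage genes and no T lineage gene were well above background on all 4 arrays. The part of such cells in the members' values was not tested.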

How the data were processed

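LSK RNA was profiled on 4 one-color arrays. The authors deposited spot intensity values from Feature Extraction (version 9.5.3.1 in the file headers, 9.1 in the submitters' processing notes), which subtracts background, corrects trends within an array and does not scale between arrays. Here control and outlier spots were dropped, spots of a probe were averaged as log2, and centered on the 75th percentile of the array. Probes that both arrays of either genotype read well above background were tested in R 4.3.3 with lmFit and eBayes of limma 3.58.1, with genotype as the only term and Benjamini-Hochberg adjustment over 22007 probes. The fit was tested on simulated data.

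Genotypes were taken from the labels. Equal replicate numbers share a slide, as the files record, and same-numbered arrays deviated together (r = 0.27), so slide was run as a block. The members and gene lists were chosen with earlier results of these data known. Every member probe is named, and of each other cell cycle list the highest and lowest gene above background on all 4 arrays. Marker lists are given by counts and summed signal, with *Kit* named as a marker of the sort, and genes of these lists that met the criteria named after their values were seen. Genes with several probes were read at the brightest. Of 15 member accessions, 13 matched RefSeq names (GRCm38.p6, names only). Those of the *Ccnd1* probe and of the downstream *Cdk6* probe did not. Positions are mm9. The number of arrays limits the precision.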

Additional observations from a re-analysis of the deposited data

How the results depend on the processing

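No member met the criteria in any of 15 alternatives (median scaling, quantile normalization, normexp, the series' value table, no dim filter, a 4-array filter, outlier spots kept, the slide block, an intensity trend, the methods' t-test, each array left out, and no scaling, the last chosen after seeing the data). A lone array was taken to vary as the other genotype did. With 2 pools a genotype, differences under 2-fold were mostly within the error.

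The replicate block (slide) called 307 probes lower and 130 higher, against 132 and 30, and changed no member call. Lower and higher calls were 47 and 2 under normexp, 43 and 10 with the 4-array filter, 23 and 7 by the methods' t-test (0 after Benjamini-Hochberg, 528 at p under 0.05), and 85 and 16 with the intensity trend. Higher calls were 100 with no dim filter and 14 with no scaling, which moved the median of all probes by -0.38. With an array left out they ranged from 57 to 1705 lower and from 34 to 510 higher, the most without Meis1-deficient 1, where 3 member probes had an unadjusted p under 0.05.

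Signs turned as follows. The *Ccnd2* probes A_52_P514391, A_52_P53906 and A_51_P433228 went to -0.042, -0.13 and -0.0014 under quantile normalization, -0.0235, -0.13 and -0.0233 under normexp, and -0.20, -0.34 and -0.27 with no scaling, and *Cdk4* went to -0.10 with no scaling. Leaving out 1 array also leaves the genotypes on unequal slides. With single arrays left out, the ranges that crossed 0 were -0.41 to 0.49 for *Ccnd2* A_52_P53906, -0.30 to 0.52 for *Ccnd2* A_51_P433228, -0.44 to 0.15 for *Ccnd3*, -0.57 to 0.26 for *Cdk6* A_51_P388310, -0.42 to 0.21 for *Cdk6* A_52_P417489, -0.24 to 1.16 for *Cdk2* A_52_P651298, -0.45 to 1.56 for *Cdk2* A_51_P266521, -0.15 to 1.01 for the *Cdk4* and *Cdk6* pair, -2.11 to 0.055 for *Cdkn1a*, -0.74 to 0.049 for *E2f2*, -0.96 to 0.35 for *Cul1*, -0.68 to 0.022 for *Cdc6* and -2.47 to 1.18 for *Mki67*. The array that turned the sign was Meis1-deficient 2 for both *Ccnd2* probes, *Cdk6*, *Cdk2*, the pair, *Cul1* and *Mki67*, control 1 for *Ccnd2* A_51_P433228, *Cdk2* A_51_P266521, *Cdkn1a*, *E2f2* and *Mki67*, control 2 for *Ccnd3* and *Cdc6*, and Meis1-deficient 1 for *Ccnd3*. *Ccnb1* reached 1.57 without Meis1-deficient 1 and was 0.20 without Meis1-deficient 2. Leaving out single arrays gave 0.18 to 1.48 for *Ccnh* and 0.24 to 1.03 for *Tfdp1*. It gave 0.54 to 1.08 for *Tyms* and 0.40 to 0.84 for *Cdkn2c*. The other main probes stayed above 0, *Ccnd1* from 0.39 to 0.60, *Ccnd2* from 0.01 to 0.34, *Cdk4* from 0.11 to 0.44, *Ccne1* from 0.18 to 0.64 and *Ccne2* from 0.42 to 1.25. The cause of these changes was not tested.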
